A study of Mus musculus with 30 samples.

Results

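The receptors for glutamate, GABA and glycine carry most fast and much slow synaptic signalling in the spinal cord, and their subunit genes were taken from the deposited expression table by name. The gene symbols Gria, Grin, Grik, Grid and Grm followed by a digit, all Gabr subunit symbols, Gabbr, Glra and Glrb were matched, which gave 46 of the 17420 genes in the table. They comprise 4 AMPA, 7 NMDA, 5 kainate and 2 delta receptor subunits, 7 metabotropic glutamate receptors, 15 GABA-A subunits, 2 GABA-B subunits and 4 glycine receptor subunits. The rule uses symbols and no level or difference. Of the 46, 44 passed the filter on low values in cord (a level of at least 1 in at least 3 of the 15 libraries), and so could be tested among 15838 genes. Gabrd, the subunit of extrasynaptic GABA-A receptors, and Gabrr2, a rho subunit best known from the retina, did not pass. Gabrd lay between 0.498 and 1.24 and Gabrr2 between 0.191 and 1.25 over all 15 libraries.

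The cords of 15 male mice, 4 months old, were sequenced, 1 library per animal, with 3 animals in each of 5 groups. The mice were wild-type (WT) or knockout (KO) for Gaa, which encodes the lysosomal enzyme acid alpha-glucosidase that is lost in Pompe disease. On the B6;129 background there were untreated Gaa WT and Gaa KO mice. On the B6;129;DBA2/J (Ltbp4D36/D36) background, called the DBA background here, there were untreated WT, untreated KO and treated KO mice, and all of them, the WT controls included, carry Ltbp4D36/D36. Treated mice had received AAV9-sp7-Δ8-hGAAco, a vector for secreted human GAA, into the temporal vein at postnatal day 1 to 2. The transgene is driven by a liver-muscle promoter (LiMP). The column names place all B6;129 libraries in one series and all libraries of the DBA background in another, so genetic background and series cannot be told apart.

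Each level below is a normalized read count as the authors deposited it, and 1 read is worth 0.0179 to 0.0369 of such a unit in the cord libraries, which hold 19208733 to 34207758 reads (median 22221382). Mouse Gaa was at 218 to 236 in WT and 15.7 to 17.7 in KO cord on B6;129, at 131 to 144 in WT and 10.6 to 13.4 in KO cord on the DBA background, and at 8.09 to 10.3 in treated KO cord, where the human transgene is not this gene. Mitochondrial genes took 6.99% to 7.70% of the reads on B6;129 and 13.2% to 17.1% on the DBA background. The summed level of 13 general neuronal genes was highest in 1 library, WT DBA replicate 4, at 9087, against 8152 and 7777 in the other WT libraries of that background and 7565 to 8115 in the KO libraries. That library also held the highest level of the 3 WT libraries for 34 of the 44 subunits, against 38.5% of all genes. Markers of cord cells were abundant, with 9 oligodendrocyte genes summing to 15484 to 16455 in WT cord on B6;129 and 25850 to 35097 in that of the DBA background, and 6 skeletal muscle genes summed to 108 to 489 and 246 to 1681 in the same groups. In bulk cord, fewer cells of a type and less RNA per cell cannot be told apart.

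Glutamate excites through ion channels built from 4 subunits of the AMPA, NMDA or kainate class, and it also acts through G-protein coupled metabotropic receptors. GABA and glycine open chloride channels built from 5 subunits, and GABA also acts through the G-protein coupled GABA-B receptor, an obligate pair of Gabbr1 and Gabbr2. In the cord, glycine carries much of the inhibition of motor neurons, and the beta subunit Glrb ties glycine receptors to the scaffold protein gephyrin.

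Levels were compared between genes only per kilobase of exon, since a long transcript yields more reads. Glrb and Gabbr1 stood highest of all subunits in WT cord on both backgrounds. On B6;129 the level of Glrb was 42.4 ± 0.514 normalized reads per kilobase (SD, n = 3). That of Gabbr1, which binds GABA in the GABA-B receptor, was 44.9 ± 0.767, so Gabbr1 led by more than these SDs. On the DBA background Glrb was at 50.8 ± 4.42 per kilobase and Gabbr1 at 35.9 ± 0.939, so Glrb led. Next came Grin1, the subunit that every NMDA receptor needs, at 21.9 ± 1.03 per kilobase on B6;129. Gabra3, an alpha subunit of GABA-A receptors, was at 17.8 ± 0.690 and Gria4, an AMPA subunit of fast-gating receptors, at 18.0 ± 0.843, so these neighbours do not differ beyond their spread.

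The other families lay lower. Grik5, an auxiliary kainate subunit that needs a partner from Grik1 to Grik3, led the kainate class at 8.54 ± 0.627 per kilobase in WT cord on B6;129. Grm5, a metabotropic receptor coupled to phospholipase C, was at 4.57 ± 0.0949, and Grid1, a delta receptor that binds cerebellins at synapses, at 4.43 ± 0.176. Glra1, the adult alpha subunit of the glycine receptor, was at 11.2 ± 2.82 per kilobase on B6;129 and 2.86 ± 0.689 on the DBA background. At the low end of the tested genes, Gabre stood at 0.286 ± 0.0284 and Grm8, a presynaptic metabotropic receptor, at 0.576 ± 0.0455 per kilobase. Gabrb2, a beta subunit that forms the GABA site together with an alpha subunit, was at 1.39 ± 0.139 on B6;129 and 0.121 ± 0.0434 on the DBA background, the lowest of the 44 there.

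**Figure D1:**
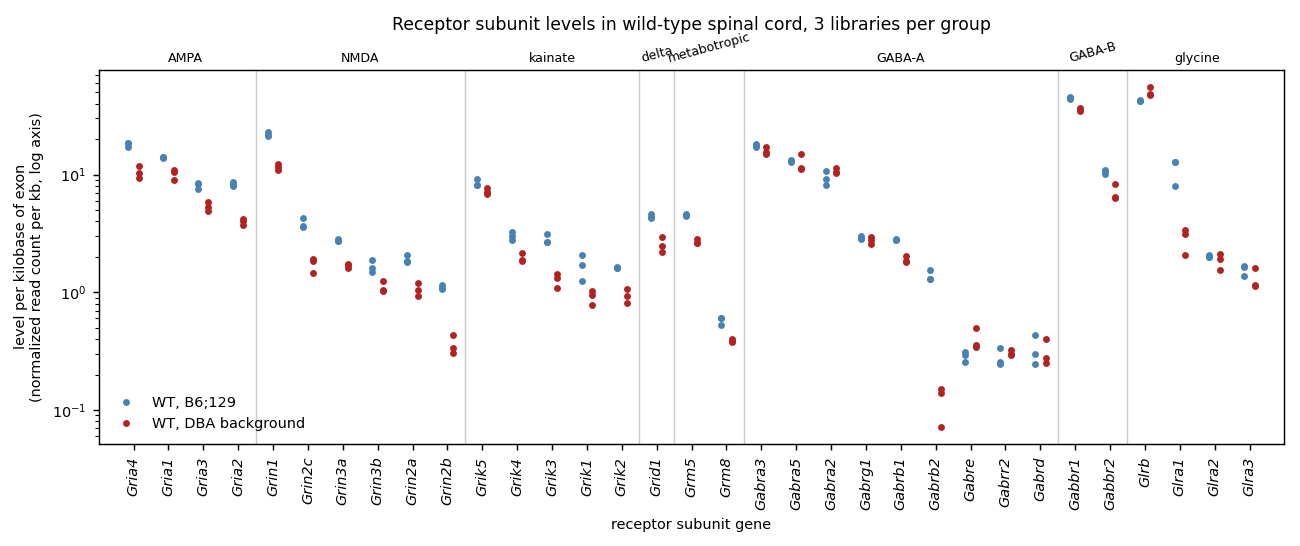
Normalized read count per kilobase of exon (log axis) of 33 of the 46 receptor subunit genes, those named in the text, in WT spinal cord, grouped by receptor family and ordered within it by the mean over all 15 libraries, with 1 point per library and 3 libraries per background. Glrb and Gabbr1 are highest, and for Gabrb2, Glra1 and Grin2b the libraries of the DBA background lie well below those of B6;129.

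On the DBA background, 5 of the 44 subunits were lower in KO than in WT cord and none was higher. Among them were the GABA-A subunit Gabra3, the glycine receptor subunit Glrb, the AMPA subunit Gria1 and the metabotropic receptor Grm8, which are described one by one here. The comparison asks what loss of acid alpha-glucosidase changes in cord on this background, and 3 libraries were set against 3 in a linear model of all 15 (limma on log2 of level plus 0.5, adjusted over all 15838 genes, called at an adjusted p under 0.05). Of all genes tested, 13% were called, 5.85% lower and 7.16% higher, while 11.4% of the subunits were called, all lower. The share called in either direction was thus close to that of all genes, and the share called lower was above it. Of the 44, 32 (72.7%) lay below zero, against 51.4% of all genes, and their median log2 difference was -0.14, against -0.01 for all genes.

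Gabra3 forms GABA-A receptors that respond to benzodiazepines and lies at chrX:72432681-72656848 on the minus strand (GRCm38, GENCODE vM21). Its levels in cord of the DBA background were 61.2, 59.2 and 67.6 in WT and 51.8, 48.6 and 51.8 in KO libraries. Every KO library lay below every WT library, a log2 difference of -0.30 ± 0.06 (SE) with limma adjusted p = 0.00887, and the mean level fell by 19.0%. On B6;129 the levels were 72.1, 66.8 and 70.5 in WT and 66.0, 60.6 and 63.4 in KO libraries. There too the groups did not overlap, but the log2 difference of -0.14 ± 0.06 (SE) was not called (limma adjusted p = 0.444).

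Glrb lies at chr3:80843599-80913660 on the minus strand, and loss of its human counterpart is a known cause of startle disease. In the DBA background it was at 226, 223 and 260.2 in WT and 199.7, 208 and 204 in KO libraries. No KO library reached the lowest WT library, and the mean level of Glrb fell by 13.7%, a log2 difference of -0.21 ± 0.05 (SE) with limma adjusted p = 0.0228. On B6;129 it was at 196, 200.3 and 196 in WT and 185, 180.2 and 198 in KO libraries, which overlap (-0.08, limma adjusted p = 0.672). Of its alpha partners, Glra2, the fetal form, was at 4.91, 6.07 and 6.69 in WT and 4.77, 4.52 and 4.18 in KO libraries of the DBA background, a log2 difference of -0.35 ± 0.11 (SE) that was not called (limma adjusted p = 0.0568). Glra3, known from the dorsal horn, had -0.47 ± 0.19 (SE) (limma adjusted p = 0.109), and Glra1 had 0.24 ± 0.20 (SE) (limma adjusted p = 0.477) in the other direction.

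Gria1 encodes an AMPA subunit whose traffic into synapses is regulated by activity, at chr11:57011387-57330244 on the plus strand. Its levels were 54.0, 63.6 and 66.1 in WT and 49.3, 47.8 and 44.4 in KO libraries of the DBA background. Its mean level fell by 22.9% without overlap, a log2 difference of -0.37 ± 0.10 (SE) with limma adjusted p = 0.0230. On B6;129 it was at 84.8, 82.9 and 84.8 in WT and 78.5, 72.0 and 59.5 in KO libraries, also without overlap, with -0.27 ± 0.10 (SE) on the log2 scale (limma adjusted p = 0.257). Of the other AMPA subunits on the DBA background, Gria2, which keeps calcium out of the channel, had 0.02, Gria3 -0.07 and Gria4 -0.07 as log2 differences, and none was called.

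Grm8, a Gi-coupled receptor of nerve terminals at chr6:27275119-28135178 on the minus strand, had the lowest level of the 5 called and the greatest relative change. It was at 3.76, 3.79 and 4.01 in WT and 2.97, 2.54 and 1.71 in KO libraries of the DBA background, so that its mean level fell by 37.6%. On the scale of log2 of level plus 0.5, which makes changes of low genes smaller, the difference was -0.61 ± 0.15 (SE) with limma adjusted p = 0.0166. Between 46 and 332 reads per library stood behind it over the 15 libraries. On B6;129 it was at 5.19, 5.99 and 5.94 in WT and 5.54, 4.45 and 5.68 in KO libraries, which overlap (-0.12, limma adjusted p = 0.834).

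**Figure D2:**
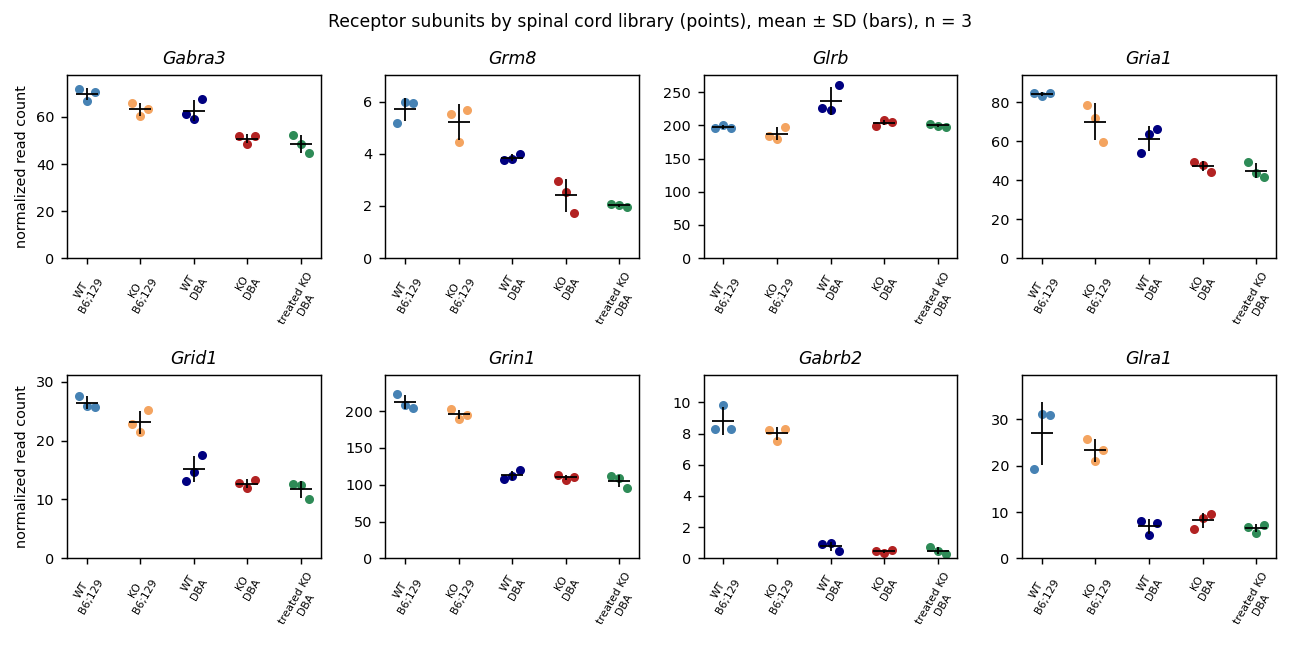
Normalized read count of 8 receptor subunits in each spinal cord library (points) with the mean ± SD of 3 libraries (bars), for WT and KO on B6;129 and for WT, KO and treated KO on the DBA background. For Gabra3, Grm8, Glrb and Gria1 every KO and treated KO library of the DBA background lies below its WT libraries, while Grin1, Gabrb2 and Glra1 are lower in all libraries of that background than in those of B6;129.

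The family medians of this comparison ranged from -0.28 for the 4 glycine receptor subunits and -0.21 for the 13 GABA-A subunits to -0.02 for the 7 NMDA and 0.01 for the 5 kainate subunits on the log2 scale. Grin3b, an NMDA subunit known from motor neurons, had the highest value, 0.29 ± 0.16 (SE), and was not called (limma adjusted p = 0.247). Gabrb1 was at 25.2, 25.3 and 28.2 in WT and 29.2, 29.8 and 30.3 in KO libraries, which did not overlap, but its log2 difference of 0.18 ± 0.06 (SE) was not called (limma adjusted p = 0.0768). At an unadjusted p under 0.05, 12 subunits (27.3%) differed, 11 of them lower, against 28.7% of all genes in either direction.

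The calls depended on single libraries and on the yardstick. Without WT DBA replicate 4, which has the highest neuronal sum, 1 subunit (Gabra3) was called and the median log2 difference was -0.05, and without KO DBA replicate 6 or 8 there were 3 (Gabra3, Gria1 and Grm8) and 2 (Gabra3 among them). Relative to the 13 general neuronal genes, whose median difference was -0.11 with 3 of 13 lower (Gap43, Syt1 and Elavl4), none of the 5 was called and 1 other subunit (Gabrb1) was called higher. That scaling moved the median of all genes by 0.11, and 10.4% of all genes were then called higher and 0.777% lower. With the libraries of the DBA background alone in the model, 2 of the 5 (Gabra3 and Gria1) were called.

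Markers of other cell types moved in the same comparison. All 9 microglia and macrophage genes were higher in KO cord, with a summed level of 222 to 235 in WT and 406 to 440.0 in KO libraries. Of 8 astrocyte genes 2 were higher, Gfap and Aqp4, and the sum was 4135 to 4671 in WT and 6223 to 6536 in KO libraries. The median log2 difference of the 8 was 0.23. Gja1 at -0.17 (limma adjusted p = 0.0946) and Slc4a4 at -0.11 (limma adjusted p = 0.148) lay below zero, and neither was called. Of 7 motor neuron genes 1 was higher, Prph at 0.40 ± 0.12 (limma adjusted p = 0.0404), and none was lower. Of 7 endothelium and pericyte genes 4 were higher (median 0.50), with a sum of 107 to 119 in WT and 150.4 to 165 in KO libraries. Of 4 oligodendrocyte precursor genes 2 were higher (sum 46.2 to 52.0 and 56.5 to 74.4), as were 1 of 9 oligodendrocyte and 1 of 4 ependymal genes. No gene of the lists for meninges and fibroblasts, Schwann cells and roots, sensory ganglion neurons, skeletal muscle and blood cells was called. The part of these cell types in the subunit differences was not tested.

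On B6;129 no subunit was called between KO and WT cord, where 1.16% of all genes were called (0.158% lower, 0.998% higher). edgeR and DESeq2 on the whole reads also called 0 subunits, and 7 subunits (15.9%) differed at an unadjusted p under 0.05 in limma, all of them lower, against 10.9% of all genes in either direction. Of the 44 subunits 40 (90.9%) lay below zero, against 57.8% of all genes, with a median log2 difference of -0.13 against -0.02. The 4 subunits with the smallest p were Gabrg1, Gria1, Grik4 and Gria4. Gabrg1, a gamma subunit also known from glia, was at 22.5, 22.6 and 23.8 in WT and 21.2, 19.5 and 18.9 in KO libraries. The groups did not overlap, and the log2 difference was -0.21 ± 0.06 (SE) (limma adjusted p = 0.179).

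Grik4, an auxiliary kainate subunit like Grik5, was at 19.4, 17.8 and 16.5 in WT and 13.6, 14.5 and 16.2 in KO libraries, a log2 difference of -0.27 ± 0.09 (SE) (limma adjusted p = 0.267). Gria4 was at 117, 116 and 108 in WT and 98.2, 96.5 and 99.5 in KO libraries, a difference of -0.21 ± 0.09 (SE) (limma adjusted p = 0.374). For both genes each KO library lay below each WT library. The differences were small throughout: the 44 values ran from -0.33 for Grik3 to 0.05 for Grik1, with a median SE of 0.11. The summed level of all subunits was 2162 to 2190 in WT and 1929 to 2040 in KO libraries. Microglia and macrophage genes summed to 206 to 217 in WT and 362 to 393 in KO libraries, with 6 of 9 called higher. Of 8 astrocyte genes 2 were called higher and 2 lay below zero without a call. Of the 13 general neuronal genes 12 lay below zero with none called. The part of these cell types in the subunit values was not tested.

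The knockout comparisons on the 2 backgrounds share no library, so their values can be set side by side. Of the 44 subunits 32 lay below zero in both, against 36.3% of all genes. Above zero in both were 4 (Gabrb1, Grik1, Grik2 and Grin2c), against 27.1% of all genes. Tested directly, the KO effect differed between backgrounds for 0 subunits in limma, where 0.524% of all genes were called. It gave 4 (9.09%) at an unadjusted p under 0.05, against 11.7% of all genes, and edgeR and DESeq2 also called 0. Those 4 were Gabrg1 at 0.24 ± 0.09 (SE) (limma adjusted p = 0.283), Grik4 at 0.33 (adjusted p = 0.338), Grm8 at -0.49 (adjusted p = 0.373) and Grin3b at 0.51 (adjusted p = 0.395), as the effect on the DBA background minus that on B6;129. For Gabra3 the difference was -0.16 with a 95% interval of -0.35 to 0.03, and for Glrb it was -0.13 with -0.30 to 0.03. None of the 5 subunits called on the DBA background is thus shown to respond to the knockout differently there than on B6;129.

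**Figure D3:**
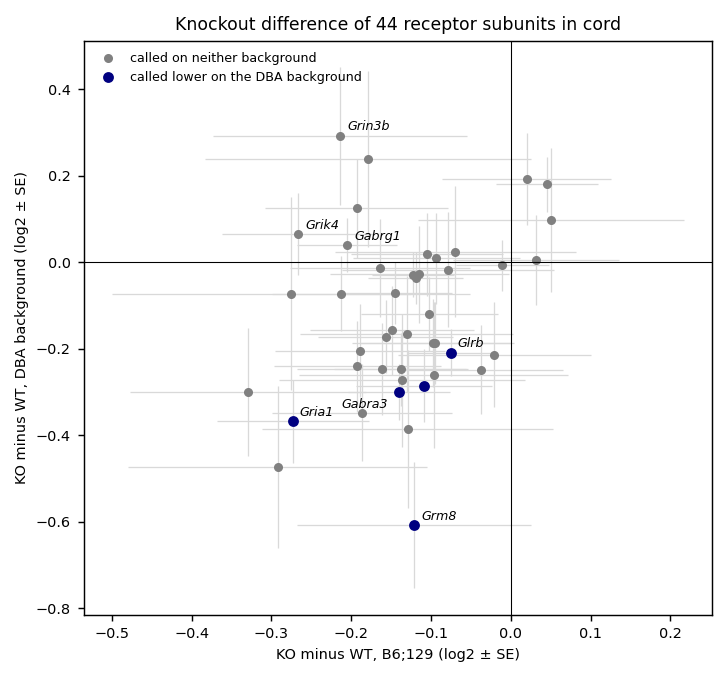
Log2 difference between KO and WT cord (± SE) of the 44 tested receptor subunits on B6;129 (horizontal axis) against the DBA background (vertical axis), with the 5 subunits called lower on the DBA background in dark blue. Of the 44 points 32 lie below zero on both axes and 4 above zero on both.

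No subunit was called between treated and untreated KO cord, the comparison that asks what gene transfer changed. limma, edgeR and DESeq2 each called 0 subunits, and 0% of all genes were called by limma (2 genes by edgeR and 167 by DESeq2). The median of the 44 log2 differences was -0.01, and 24 lay below zero. At an unadjusted p under 0.05 there was 1 subunit (2.27%), against 10.7% of all genes. It was Grin2b, an NMDA subunit prominent in early development. Its levels were 9.97, 7.26 and 8.97 in untreated and 8.19, 6.27 and 6.65 in treated KO libraries, which overlap, with -0.29 ± 0.13 (SE) on the log2 scale (limma adjusted p = 0.452).

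Next by p came Grik1, a kainate subunit, at 0.28 ± 0.17 (SE) (limma adjusted p = 0.594), the NMDA subunit Grin2a at 0.17 (adjusted p = 0.603) and Glra1 at -0.30 (adjusted p = 0.653). For Gabra3, Glrb, Gria1 and Grm8, which were lower in untreated KO cord, treated minus untreated KO gave 95% intervals that bound any change. They were -0.20 to 0.07 for Gabra3, -0.14 to 0.09 for Glrb, -0.28 to 0.13 for Gria1 and -0.50 to 0.13 for Grm8.

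Against WT cord of the DBA background, treated KO cord had 7 subunits lower and none higher, where 16.8% of all genes were called (7.95% lower, 8.81% higher) and 15.9% of the subunits. All 5 subunits called in untreated KO cord were among the 7, but the comparisons share the WT libraries. In the treated libraries Gabra3 was at 52.5, 48.7 and 44.8, a log2 difference from WT of -0.36 ± 0.06 (SE) (limma adjusted p = 0.00238). Grm8 was at 2.08, 2.02 and 1.96, with -0.79 ± 0.15 (SE) (limma adjusted p = 0.00327). Both lay below every WT library.

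Gria1 was at 49.1, 43.7 and 41.6 in the treated libraries (-0.45 against WT, limma adjusted p = 0.00721) and Glrb at 203, 199 and 198 (-0.24, limma adjusted p = 0.00970). The other 2 subunits called here were Grid1 and Gabra2, an alpha subunit of axonal and synaptic GABA-A receptors. Grid1 was at 13.1, 14.7 and 17.6 in WT and 12.6, 12.5 and 10.1 in treated KO libraries, a log2 difference of -0.35 ± 0.11 (SE) (limma adjusted p = 0.0354). Gabra2 was at 78.6, 87.8 and 80.0 in WT and 56.0, 56.8 and 63.7 in treated libraries, with -0.48 ± 0.15 (SE) (limma adjusted p = 0.0468). Its untreated KO libraries, at 56.5, 85.1 and 64.8, spanned both. Of 16 other settings of this comparison, Gabra2 was not called in 10 and Grid1 in 5. Gabra3, Gria1 and Glrb were each not called in 1, and Grm8 was called in all 16.

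Markers of other cell types were also called higher in treated KO than in WT cord. They were 7 of 9 microglia and macrophage genes, with a sum of 222 to 235 in WT and 302 to 408 in treated KO libraries, and 4 of 8 astrocyte genes (sum 4135 to 4671 and 6069 to 7648). Another 2 of the 8 astrocyte genes lay below zero without a call. Of 9 oligodendrocyte genes 5 were higher (sum 25850 to 35097 and 33097 to 43078), as were all 4 oligodendrocyte precursor genes (sum 46.2 to 52.0 and 73.1 to 76.6) and 3 of 7 endothelium and pericyte genes (sum 107 to 119 and 141 to 156). Their part in the subunit differences was not tested.

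These calls also moved with the setting. Without treated replicate 21, 12 subunits were called, 11 lower and 1 higher. Relative to the general neuronal genes, of which 5 of 13 were lower (median -0.21), 12 subunits were called, 11 of them higher, and Glrb turned to 0.030. That scaling moved the median of all genes by 0.27, and 45.5% of all genes were then called higher, against 25.0% of the subunits.

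The largest differences lay between WT cord of the 2 backgrounds. Of the 44 subunits 31 were lower and 2 higher on the DBA background than on B6;129, where 66.8% of all genes were called (34.5% lower, 32.3% higher). Of the subunits 70.5% were thus called lower. Their median log2 difference was -0.56, against -0.02 for all genes, and 41 of 44 lay below zero. The comparison cannot be told apart from the difference between the 2 series of libraries, and a difference in mitochondrial share goes with it. Markers of other cell types differed too. All 7 endothelium and pericyte genes were lower on the DBA background (median -1.15), with a sum of 241 to 271 on B6;129 and 107 to 119 on the DBA background. All 5 blood cell genes were lower (sum 489 to 729 and 106 to 201), as were all 4 oligodendrocyte precursor genes (sum 79.5 to 83.0 and 46.2 to 52.0). Of 9 oligodendrocyte genes 7 were higher and 1 lower, of 8 astrocyte genes 2 and 1, of 9 microglia and macrophage genes 3 and 1, and of 7 motor neuron genes 2 and 2. Their part in the subunit differences was not tested.

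By family, all 4 AMPA, all 7 NMDA and all 5 kainate subunits were lower, as were 6 of the 7 metabotropic receptors. Both GABA-B subunits were lower. Among the 13 GABA-A subunits 4 were lower (Gabra3, Gabrb1 and Gabrb2 among them), 1 was higher (Gabre) and 8 were not called, and among the glycine receptor subunits Glra1 was lower and Glrb higher. The family medians were -0.83 for NMDA, -0.78 for kainate, -0.68 for AMPA and -0.14 for GABA-A subunits on the log2 scale.

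**Figure D4:**
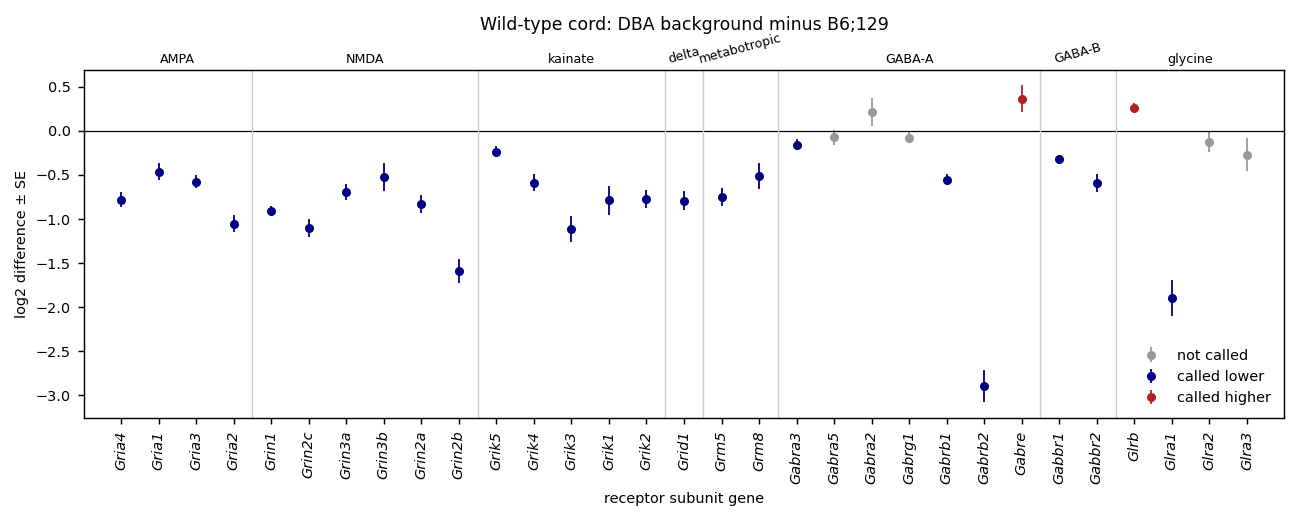
Log2 difference (± SE) of 31 of the 44 tested receptor subunits, those named in the text, between WT cord of the DBA background and of B6;129, by receptor family, with calls at a limma adjusted p under 0.05 in colour. All AMPA, NMDA and kainate subunits plotted lie below zero, and Gabrb2 is lowest at -2.89.

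Gabrb2 differed most. Its levels were 8.32, 9.85 and 8.30 in the WT and 8.20, 7.54 and 8.29 in the KO libraries of B6;129. In the DBA background they were 0.895, 0.966 and 0.456 in WT, 0.503, 0.346 and 0.534 in KO and 0.716, 0.439 and 0.305 in treated KO libraries. All 9 libraries of the DBA background were thus far below all 6 of B6;129, and the WT log2 difference was -2.89 ± 0.18 (SE) (limma adjusted p = 4.31e-09), a value that the added 0.5 makes smaller than it is. Gabrb2 lies at chr11:42419757-42629028 on the plus strand.

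Glra1, mutated in startle disease in people and in the spasmodic mouse, lies at chr11:55514238-55608198 on the minus strand. It was at 19.2, 31.1 and 30.8 in WT libraries of B6;129 and 8.12, 5.00 and 7.57 in those of the DBA background, without overlap, a log2 difference of -1.89 ± 0.20 (SE) (limma adjusted p = 1.21e-06). Its KO levels were 25.8, 20.9 and 23.3 on B6;129 and 6.33, 8.61 and 9.60 on the DBA background, on the same sides. Glrb went the other way, from 196, 200.3 and 196 to 226, 223 and 260.2, a difference of 0.26 ± 0.05 (SE) (limma adjusted p = 0.000733). Its direction turned with the scaling: it was -0.017 after quantile normalization and -0.21 relative to the general neuronal genes, while Gabre, at 1.38, 1.21 and 1.47 and 1.70, 1.63 and 2.38 in the WT libraries (0.36, limma adjusted p = 0.0464), turned to -0.10 under the latter.

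Among the NMDA subunits, Grin2b went from 26.7, 28.6 and 26.9 in WT libraries of B6;129 to 8.32, 7.57 and 10.7 in those of the DBA background, a log2 difference of -1.59 ± 0.13 (SE) (limma adjusted p = 8.54e-08). Grin1 went from 224, 209 and 205 to 107, 112 and 119, with -0.91 ± 0.06 (SE) (limma adjusted p = 6.9e-09). Grin2c, the NMDA subunit best known from the cerebellum, went from 18.1, 18.5 and 21.6 to 9.33, 7.42 and 9.61, with -1.10 ± 0.11 (SE) (limma adjusted p = 3.61e-07). None of these groups overlapped. Grin2c is also the subunit nearest to Gaa on chromosome 11, at a distance of 4 Mb, and its KO libraries of B6;129, at 21.8, 17.9 and 19.4, overlapped the WT libraries. Grin2a had -0.83 and Grin3a, an NMDA subunit that binds glycine, -0.69 as log2 differences between the WT groups, both called.

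Among the AMPA subunits, Gria2 went from 125, 129 and 134 to 57.7, 63.2 and 65.9 in WT libraries, a log2 difference of -1.05 ± 0.10 (SE) (limma adjusted p = 1.88e-07). Gria4 went from 117, 116 and 108 to 58.6, 65.3 and 75.1, with -0.78 ± 0.09 (SE), and Gria3 from 82.9, 81.3 and 74.5 to 52.5, 48.9 and 58.2, with -0.58 ± 0.07 (SE). All were without overlap. Gabrb1 went from 38.4, 39.3 and 38.6 to 25.2, 25.3 and 28.2, with -0.56 ± 0.06 (SE), and Grid1 from 27.6, 25.9 and 25.8 to 13.1, 14.7 and 17.6, with -0.79 ± 0.11 (SE). Over all genotypes, 26 of the 44 subunits (59.1%) were lower in all 9 libraries of the DBA background than in all 6 of B6;129, which held for 24.4% of all genes, and 1 (Gabre) was higher in all, which held for 24.5%.

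The WT difference of all genes went with transcript length, and the subunits have long transcripts, with a median exon length of 6600 bases against 4267 for all genes. With all genes split by exon length into 4 classes of equal size, from short to long, the median log2 difference of all genes was 0.53, 0.10, -0.15 and -0.41. The shares of genes called lower were 10.2%, 20.5%, 41.2% and 66.0%. Of the 44 subunits 1, 5, 16 and 22 fall in these classes, and 1, 3, 10 and 17 of them were called lower. In the longest class, which holds 22 subunits, their median was -0.60 against -0.41, and 77.3% of them were lower.

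With the trend on exon length removed in each library, a setting chosen after the data were seen, 21 subunits (47.7%) were called lower and 4 (9.09%) higher, with a median of -0.22. Of all genes 25.9% were then called lower and 32.0% higher, with a median of 0.03. Gabrb2 then had -2.65, Glra1 -2.16 and Grin1 -0.48, while Gabrb1 turned to 0.025 and Grin3a, Grin2a and Gria3 were no longer called. The same setting gave 7 calls (15.9%) in the knockout comparison on the DBA background, all lower and with all 5 of the calls above among them. Of all genes 8.45% were then called lower there and 6.27% higher. Without removal of that trend, general neuronal genes did not share the direction of the subunits between the WT groups. Of 13, 7 were higher and 2 lower on the DBA background, with a median of 0.33. Their summed levels were 6287 to 6581 on B6;129 and 7777 to 9087 on the DBA background. As a mean share of all reads they were nearly level, at 1.05% and 1.07%, while the 46 subunits took 0.356% and 0.207%. Neuronal genes with the trend removed are not given here.

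**Figure D5:**
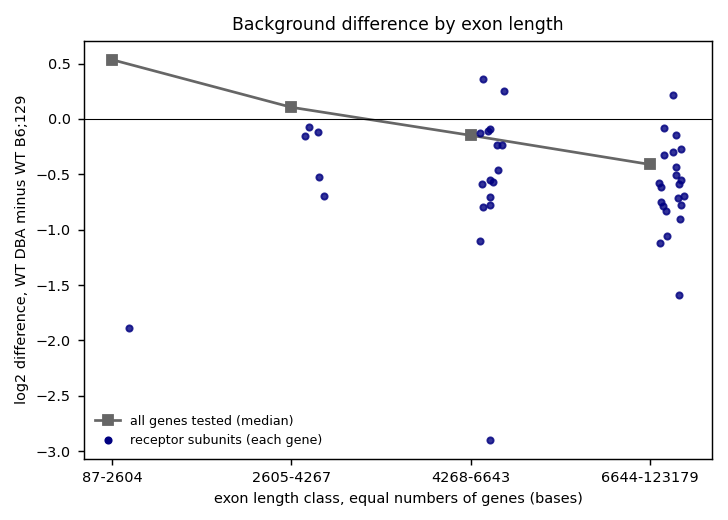
Log2 difference between WT cord of the DBA background and of B6;129 by class of exon length (bases, equal numbers of genes in each of 4 classes), with the median of all tested genes (squares) and each of the 44 receptor subunits (points, spread sideways for legibility). The median of all genes goes from 0.53 in the shortest to -0.41 in the longest class, and 22 of the 44 subunits are in the longest.

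Subunit composition, as shares of the level per kilobase within a family, is given for examples chosen after their values were seen. Glra1 made up 75.1% ± 4.36 (SD, n = 3) of the glycine receptor alpha subunits in WT cord on B6;129 and 47.2% ± 7.77 on the DBA background, while the share of Glra2 was 14.2% ± 3.06 and 31.4% ± 5.84. Gabrb2 made up 8.75% ± 0.618 and 1.37% ± 0.602 of the beta subunits. Grin2b made up 10.9% ± 0.925 and 6.88% ± 0.705 of the GluN2 subunits. In each of these the SDs of the groups were smaller than the gap. None of the shares was corrected for the trend on exon length between the WT groups, and its part in them was not tested.

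Other shares lay closer together in the WT groups. Gabra3 led the GABA-A alpha subunits at 38.7% ± 1.11 on B6;129 and 35.9% ± 1.08 on the DBA background, before Gabra5, known for tonic inhibition, at 28.5% ± 1.22 and 28.1% ± 2.52. Within AMPA receptors Gria4 held 37.3% ± 1.04 and 34.9% ± 1.04. In KO cord of the DBA background the Gria1 share of AMPA subunits was 29.0% ± 1.03, against 33.7% ± 1.31 in WT, and on B6;129 it was 27.4% ± 2.91 against 28.8% ± 0.780.

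Upstream sequences are shown for 4 subunits whose levels differed, Gabra3 and Glrb from the knockout comparison and Gabrb2 and Grin1 from the comparison of WT groups. Each is the 250 bases before the most upstream RefSeq start (GRCm38.p6), at chrX:72656920-72657169, chr3:80913661-80913910 and chr2:25319188-25319437 on the minus strand and chr11:42420190-42420439 on the plus strand, written 5′ to 3′ in the direction of the gene. The window of Gabrb2 lies within the GENCODE gene, which starts further upstream. For Gabra3 and Gabrb2, unlike Glrb and Grin1, the bases that follow the window were not found near the start of a GENCODE transcript. Capitals mark a GC box (GGGCGG) or a TATA box (TATAAA), read on either strand.
Gabra3: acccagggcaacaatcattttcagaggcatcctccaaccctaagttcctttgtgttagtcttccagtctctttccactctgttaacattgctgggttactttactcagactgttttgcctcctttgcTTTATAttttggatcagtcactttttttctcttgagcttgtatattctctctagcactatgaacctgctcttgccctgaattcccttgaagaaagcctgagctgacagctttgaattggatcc
Glrb: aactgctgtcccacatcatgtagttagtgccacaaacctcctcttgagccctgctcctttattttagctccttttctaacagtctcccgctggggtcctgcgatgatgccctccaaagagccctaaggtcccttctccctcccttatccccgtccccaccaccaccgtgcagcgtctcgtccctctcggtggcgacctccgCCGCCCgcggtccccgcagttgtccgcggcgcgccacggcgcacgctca
Gabrb2: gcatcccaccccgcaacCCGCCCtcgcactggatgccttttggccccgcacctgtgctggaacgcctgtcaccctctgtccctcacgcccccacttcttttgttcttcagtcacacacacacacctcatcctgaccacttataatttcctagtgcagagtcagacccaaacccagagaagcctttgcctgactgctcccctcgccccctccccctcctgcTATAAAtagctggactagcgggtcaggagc
Grin1: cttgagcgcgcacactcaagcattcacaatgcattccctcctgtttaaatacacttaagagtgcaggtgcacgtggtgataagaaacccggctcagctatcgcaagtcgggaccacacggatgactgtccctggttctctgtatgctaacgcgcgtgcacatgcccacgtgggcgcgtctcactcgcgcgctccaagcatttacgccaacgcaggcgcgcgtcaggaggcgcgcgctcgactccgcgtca
The window of Gabra3 holds a TATA box on the opposite strand, that of Glrb a GC box on the opposite strand, that of Gabrb2 one of each, and that of Grin1 neither. RefSeq promoters were matched for 30 of the 46 subunits (37 promoters). A GC box stood in 20 of the 37 (54.1%), against 32.7% of all 32851 promoters, a TATA box in 13.5% against 12.4%, and a cAMP response element (TGACGTCA) in 0% against 1.55%. A match is a run of letters and not a bound site.

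Some genes that serve these receptors were also lower in KO cord of the DBA background. These calls rest on the same libraries as those of the subunits. Their values without single libraries or relative to the general neuronal genes are not given here. Of 20 genes for synthesis and transport of the transmitters 5 were lower and none higher in KO than in WT cord, with a median of -0.10. Of all genes tested, 5.85% were called lower and 7.16% higher in this comparison. Gad2 and Gad1, the enzymes that make GABA, had -0.41 ± 0.08 (limma adjusted p = 0.00738) and -0.33 ± 0.08 (adjusted p = 0.0201). Gad2 was at 45.2, 43.1 and 47.1 in WT and 35.6, 34.4 and 31.3 in KO libraries, without overlap. Abat, which breaks GABA down, had -0.20 ± 0.05 (limma adjusted p = 0.0201). The other 2 were Slc32a1, the vesicular transporter of GABA and glycine, and Slc6a5, the neuronal glycine transporter.

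Of 38 genes for auxiliary subunits and scaffolds 5 were lower and 1 higher, with a median of -0.13. Their share called in either direction was close to the 13% of all genes. Cnih2, a partner of AMPA receptors, was at 20.0, 21.7 and 21.8 in WT and 14.0, 16.3 and 13.7 in KO libraries and fell by 0.52 ± 0.09 on the log2 scale (limma adjusted p = 0.00240). Dlg2, a scaffold of NMDA receptors, fell by 0.31 ± 0.06 (limma adjusted p = 0.00668), and Homer3, a scaffold of metabotropic receptors, rose by 0.52 ± 0.12 (limma adjusted p = 0.0116). Of 18 genes for chloride balance and downstream signalling 1 was higher and 2 lower, with a median of -0.15, also close to the share of all genes called. Slc12a2, which loads cells with chloride, was at 141, 137 and 131 in WT and 177, 162 and 169 in KO libraries and rose by 0.31 ± 0.06 (limma adjusted p = 0.00602). Camk2b and Camk2a, kinases that act on glutamate receptors, fell by 0.17 ± 0.04 and 0.42 ± 0.13 (limma adjusted p = 0.0174 and 0.0479).

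On B6;129 no gene of these 3 lists was called between KO and WT cord, and 30 of 38, 15 of 20 and 15 of 18 lay below zero. Of all genes 1.16% were called there and 57.8% lay below zero. Between treated and untreated KO cord none was called either, where limma called 0% of all genes. Between the WT groups, 21 of the 38 auxiliary and scaffold genes were lower and 4 higher on the DBA background. Their share called in either direction was close to the 66.8% of all genes, of which 34.5% were lower and 32.3% higher. The smallest p-values belonged to Gabarap, which carries GABA-A receptors to the membrane, at 1.10 ± 0.05, to the scaffold Shank1 at -1.05 ± 0.07 and to Shisa7, an auxiliary protein of GABA-A receptors, at -1.38 ± 0.13. Of the transmitter genes 15 of 20 were lower, led by Slc38a1, a glutamine carrier, at -0.86 ± 0.06 and Slc6a5 at -0.93 ± 0.11. Of the signalling genes 10 of 18 were lower and 3 higher, with Slc12a5, which extrudes chloride from neurons, at -0.68 ± 0.06, the carbonic anhydrase Car2 at 0.89 ± 0.09 and Camk2b at -0.41 ± 0.04.

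Between treated KO and WT cord of the DBA background, 2 transmitter genes were higher and 6 lower, 1 auxiliary or scaffold gene was higher and 6 lower, and 3 signalling genes were higher and 4 lower. Of all genes 16.8% were called in this comparison, 7.95% lower and 8.81% higher. Glul, which makes glutamine in astrocytes, had 0.41 ± 0.08 (limma adjusted p = 0.00601), Abat -0.24 ± 0.05 and Gad2 -0.38 ± 0.08 on the log2 scale. Cacng5, a partner of AMPA receptors, had -0.52 ± 0.10 (limma adjusted p = 0.00436) and Dlg2 -0.29 ± 0.06. Slc12a2 had 0.57 ± 0.06 (limma adjusted p = 0.000109), Car2 0.41 ± 0.09 and Rgs7, which shortens G-protein signals, -0.38 ± 0.09. The treated libraries stood at 194, 209 and 206 for Slc12a2, above every WT and every untreated KO library.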

How the data were processed

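Spinal cord RNA of 15 mice was measured by polyA RNA-seq with a kit that does not keep strand, per the labels' protocols. The tools named in the submitters' processing notes are cutadapt, RSEM, limma and edgeR, with GRCm38 as the build, and their versions and settings are not given in the sources used here. The signal values deposited by the authors are normalized counts: each equals whole reads plus 0.5 divided by a scaled library size (100% whole within 0.001). Overlapping antisense transcripts therefore cannot be told apart from the genes named.

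Columns were joined to samples by name. The 3 treated cord columns could be joined to their group only, since the descriptions name 1 of them for 2 samples, and their libraries carry the column numbers. In R 4.3.3, log2(signal + 0.5) of genes at 1 or more in at least 3 of 15 cord libraries was fitted with limma 3.58.1 (5 groups, intensity trend) and adjusted by Benjamini-Hochberg over 15838 genes. The 6 comparisons were each also run with edgeR 4.0.16 (quasi-likelihood) and DESeq2 1.42.0 on the recovered reads, other filters, pseudocounts and scalings, and without each library in turn. Exon lengths are from GENCODE vM21, which held 99.9% of the 17420 identifiers. The script was tested on simulated data. Subunits, gene lists and comparisons were chosen with earlier results of these data known. The 12 subunits with the smallest adjusted p, all subunits called in a knockout comparison, the leading subunit of each family and the 4 smallest p-values of comparisons without calls are named, with up to 3 called genes per partner list. Rows with an identifier but no gene symbol (265) stayed in the fit. Some subunits and partner genes are not reported here, though they remain in all counts and medians.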

Additional observations from a re-analysis of the deposited data

Results flagged for a closer look

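In quadriceps, whose libraries entered no comparison above, 9 of the 46 receptor subunits passed the filter on low values among 14113 genes, and signals above the WT libraries appeared there. Gabrd, the extrasynaptic GABA-A subunit that was too low to test in cord, was higher in KO than in WT quadriceps on both backgrounds. On B6;129 it was at 0.324, 1.12 and 0.627 in WT and 1.46, 1.98 and 2.29 in KO libraries, a log2 difference of 1.06 ± 0.29 (SE, limma adjusted p = 0.0117). On the DBA background it was at 1.14, 0.333 and 0.821 in WT and 2.45, 2.59 and 3.03 in KO libraries, a difference of 1.39 ± 0.29 (limma adjusted p = 0.00205). Treated KO libraries stood at 0.802, 1.53 and 1.07, below every untreated KO library of that background, with -0.99 ± 0.29 against them (limma adjusted p = 0.0150). In WT quadriceps Gabrd was low too, at 0.324 to 1.14, which limits the precision of these differences. Gabbr1, a GABA-B subunit, was at 8.68, 10.0 and 8.18 in WT and 15.2, 13.7 and 10.6 in KO libraries of the DBA background, a difference of 0.52 ± 0.16 (limma adjusted p = 0.0174). Quadriceps had many called genes: 35.8% of those tested in KO against WT on B6;129, 39.4% on the DBA background and 40.6% in treated against untreated KO.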

How the results depend on the processing

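No paired analysis was possible because the cord groups compared share fewer than 2 replicate numbers. In KO against WT cord of the DBA background none of the 5 called subunits was called when levels were centred on general neuronal genes, where 1 other (Gabrb1) was called higher, and 2 were called with that background alone in the model. Leaving out 1 library at a time gave 1 to 6. Gabra3 was called under every alternative except the neuronal centring. In treated KO against WT cord 12 were called under neuronal centring, 11 of them higher, in place of 7 lower, and 5 to 12 without single libraries. In these 2 comparisons the neuronal centring moved the median of all genes by 0.11 and 0.27, and in the comparison of WT groups by -0.46. Scaling to nuclear genes moved the latter by -0.21, with 40 subunits lower. Values that turned sign were Glrb in treated KO against WT (0.030, neuronal centring) and, between WT groups, Glrb (-0.017 after quantile normalization, -0.21 under neuronal centring), Gabre (-0.10, neuronal centring) and Gabrb1 (0.025, exon length trend removed, chosen after the data were seen). The counts of 0 in the other 3 comparisons were 0 under all alternatives run, and the WT count of 33 stayed between 25 and 42. Low subunits such as Grm8, and Gabrb2 on the DBA background, rest on fewer reads than abundant ones, which limits their precision.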

Other observations

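In quadriceps another subunit was lower in KO than in WT libraries. Gabrr2, the rho subunit, had a log2 difference of -0.95 ± 0.31 on the DBA background (SE, limma adjusted p = 0.0249), where WT libraries stood at 3.09, 1.36 and 1.62 and KO libraries at 0.656, 1.28 and 0.449. These levels are low, from 0.449 to 3.09 in the deposited unit, which is not a count of whole reads.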
